A study of Mus musculus with 8 samples.

Results

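The 10 genes described here encode the main cytosolic and mitochondrial heat shock proteins of the mouse: Hspa1a, Hspa1b, Hspa8, Hsp90aa1, Hsp90ab1, Dnajb1, Hsph1, Hspa9, Hspd1 and Hspe1. They were taken by symbol from a table of 55414 genes, and all 10 had enough counts to enter the test of 15371 genes. The table holds RNA-seq counts of wound macrophages, with 3 libraries from skin wounds at day 1 after injury (letters a to c) and 5 from wounds at day 3 (letters a to e). For both days, wound-bed tissue was excised, digested with collagenases and enriched with magnetic beads that bind F4/80, the product of the macrophage gene Adgre1, and 6 wounds of 3 mice went into each pool. Both groups carry an injury and no other treatment is named, so no unwounded skin or resting macrophage stands beside them. Strain, genotype, sex and age are not given in the labels used here. The labels also do not say whether the pools of a day came from separate mice or dates, so each p measures the spread between pools, which may be partly technical.

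Heat shock proteins are chaperones, which bind unfolded or partly folded proteins and release them through cycles of ATP binding and hydrolysis. In the cytosol, HSP70 proteins (Hspa1a, Hspa1b, Hspa8) take up clients delivered by J-domain proteins such as Dnajb1, exchange their nucleotide with the help of HSP110 (Hsph1), and pass part of their clients to HSP90 (Hsp90aa1, Hsp90ab1). In the mitochondrion, Hspa9 pulls imported chains through the inner membrane, and the chaperonin Hspd1 with its lid Hspe1 folds them. Hspa8 and Hsp90ab1 are made in nearly all cells, whereas Hspa1a and Hspa1b are switched on by heat, proteotoxic stress and cell handling through heat shock factor 1 (Hsf1). In macrophages, HSP70 and HSP90 are known for roles in antigen handling, in the stability of signalling kinases and in survival under oxidative stress.

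The libraries held 41566151 to 60289310 counts each, and the detection floor of 3 counts was worth 0.0498 to 0.0722 CPM, the normalised counts scaled to a common library total. Low counts were mostly even, since 73.0% to 86.0% of counts between 2 and 20 were even numbers, as when both reads of a pair are counted, and the floor covers counting error only. The libraries differed in the number of genes detected: 23928 to 27315 genes had a count at day 1, 20557 in day 3 a and 14952 to 15359 in the other day 3 libraries. The summed CPM of 10 macrophage markers, all of which passed the filter, was 16775 to 19680 at day 1 and 28167 to 35657 at day 3, with the largest part from Lyz2. The markers were not uniform, since 6 of the 10 had a log2 fold change above 0 and 4 below, with a median of 0.21. The sum of 8 inflammatory monocyte markers was 7441 to 8846 at day 1 and 4615 to 6027 at day 3. Neutrophil markers reached 656, 2042 and 3728 CPM in the 3 day 1 libraries and 3397 CPM in day 3 b, against 271 to 526.4 CPM in the other day 3 libraries, with S100a8 leading. Fibroblast markers were low and higher at day 3 (9.49 to 39.5 against 57.6 to 125 CPM), as were B and plasma cell markers (0.252 to 13.4 against 17.6 to 36.1 CPM), while endothelial markers were lower (31.2 to 78.1 against 17.3 to 29.9 CPM). Of the defining markers, 1 of 6 B and plasma cell markers and 2 of 5 mast cell markers had 3 counts or fewer in every library. For the macrophage, monocyte, fibroblast, endothelial and B and plasma cell sums and for the number of genes with a count, the exact two-sided permutation test gave p = 0.0357, the smallest that 56 assignments of the libraries allow, and 0.0893 after adjustment over 15 measures. In bulk RNA, fewer cells of a type and less RNA per cell cannot be told apart.

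Heat shock factor 1 binds runs of the unit GAA and its inverse TTC that alternate at a spacing of 2 bases, so a pair reads GAANNTTC or TTCNNGAA. Both strands were searched in the RefSeq promoter windows of GRCm38.p6 (250 bases before to 50 after each annotated start), of which 32851 were in the table, and a pair can overlap a longer run, which was then counted at its full length. Of all windows, 15.1% held a run of 2 or more units, 0.603% a run of 3 or more and 0.0244%, or 8 windows, a run of 4 or more. Windows were matched for 6 of the 10 genes: Hspa1a, Hspa1b, Hsph1, Dnajb1, Hspd1 and Hspe1, with 9 windows in all. Of the 9 windows, 6 held at least 2 units, and these belonged to 5 of the 6 genes. These windows are not independent, so their number cannot be set against the share of all windows. Those of Hspa1a and Hspa1b differ at 3 of the 250 bases before the start. Those of Hsph1 overlap, and Hspe1 and Hspd1 share their run. A match of letters is a description of the sequence and does not show that a factor was bound.

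The upstream sequences of Hspa1a and Hspa1b are shown because these genes had the highest fold changes of the set and nearly the same promoter. They lie on the minus strand at chr17:34972157-34972406 and chr17:34959239-34959488 (GRCm38.p6), and 3 of the 250 bases before the start differ. The capitals mark the pair of heat shock units, whose first base lies 104 bases before the start in both genes.

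Hspa1a: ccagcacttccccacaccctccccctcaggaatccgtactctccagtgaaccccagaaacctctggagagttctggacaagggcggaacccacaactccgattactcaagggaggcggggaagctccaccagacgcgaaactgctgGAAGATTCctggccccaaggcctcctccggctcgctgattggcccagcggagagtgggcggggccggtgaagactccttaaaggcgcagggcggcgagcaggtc

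Hspa1b: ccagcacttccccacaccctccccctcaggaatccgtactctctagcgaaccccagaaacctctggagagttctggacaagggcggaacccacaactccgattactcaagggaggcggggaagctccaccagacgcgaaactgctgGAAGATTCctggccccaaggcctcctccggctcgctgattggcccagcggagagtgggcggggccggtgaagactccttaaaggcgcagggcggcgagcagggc

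A CCAAT box on the same stretch starts 67 bases before each start site and lies on the other strand, so that it reads attgg here. Windows with CCAAT on either strand made up 37.4% of the table, and windows with TATAAA, which was found in none of the 9, made up 13.6%.

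Hspe1 and Hspd1 are divergent neighbours, and their windows hold a run of 4 units that is the same stretch of DNA read from both sides. It starts 89 bases before the start of Hspe1 and 144 bases before the second annotated start of Hspd1, and it lies in an exon annotated to Hspd1. It is shown with the 2 stretches of Hsph1, on the minus strand of chromosome 5, because the runs of 4 and 3 units are the longest among the genes and the Hsph1 pair lies close to its start. The units are in capitals.

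Hspe1, chr1:55088053-55088082, plus strand: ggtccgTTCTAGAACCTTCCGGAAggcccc

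Hsph1, chr5:149636351-149636380, minus strand: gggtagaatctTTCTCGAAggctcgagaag

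Hsph1, chr5:149636279-149636308, minus strand: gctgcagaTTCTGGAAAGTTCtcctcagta

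The pair of Hsph1 starts 33 bases before its first annotated start and 54 before its second, and its run of 3 starts 36 and 15 bases after them. Neither window of Dnajb1 held a pair, and the window at the first annotated start of Hspd1 held none. No promoter entry was at hand for Hspa8, Hsp90aa1, Hsp90ab1 and Hspa9.

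**Figure D1:**
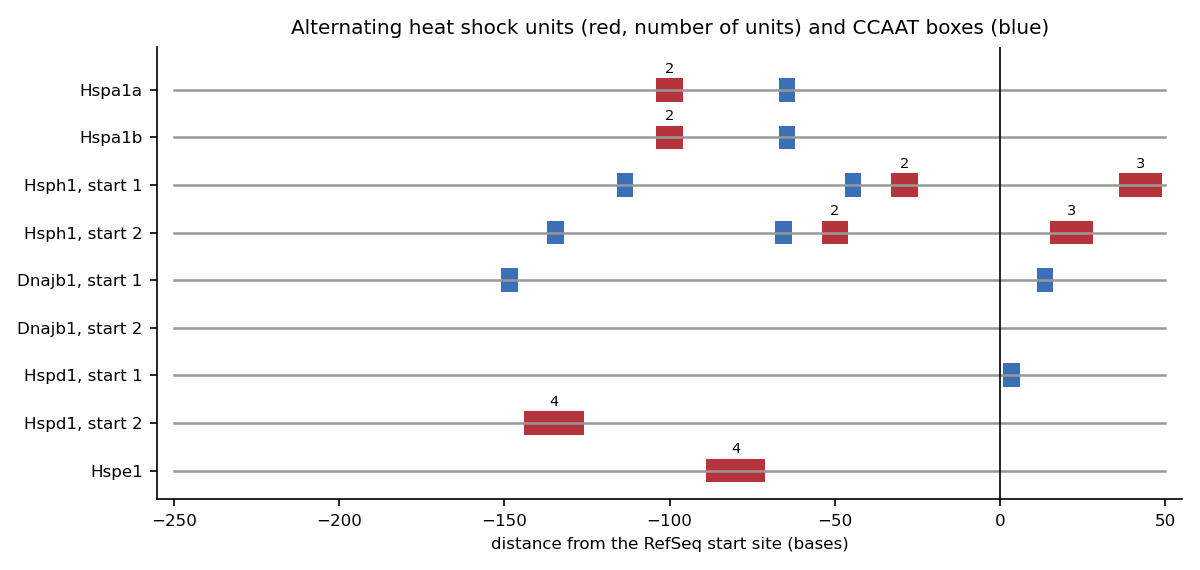
Map of the 9 promoter windows, with the distance from the RefSeq start site in bases on the x axis, runs of alternating heat shock units as red boxes labelled with their number of units, and CCAAT boxes in blue. The pair lies at the same distance in Hspa1a and Hspa1b, the run of 4 appears in the windows of Hspe1 and of the second start of Hspd1, and both Dnajb1 windows hold no red box.

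The comparison of day 3 with day 1 asks how transcript levels of the chaperones stood in the early inflammatory wound and in the wound 2 days later. Of the 10 genes, 9 had a log2 fold change above 0, and their median was 0.28, whereas the median over all genes tested was -0.17, with 42.9% above 0. In the 3882 genes whose average log2 CPM was 5 or more, where 9 of the 10 lie, the median was -0.05 and 46.9% were above 0. More genes were detected at day 1, and the part of that in these all-gene values was not tested. No member passed an adjusted p of 0.05 in the quasi-likelihood test of edgeR, in which 2 of all genes passed (0.0130%). Before adjustment, 2 members were at p under 0.05 and higher at day 3, Hspa8 and Dnajb1, as were 5.16% of all genes tested. DESeq2 called the same 2 members, both higher. It called 6.77% of all genes in either direction, 381 of them higher and 660 lower. Limma voom called Hspa8 alone, and 5.37% of all genes in either direction, 148 of them higher and 677 lower. For Hspa8, Dnajb1 and Hspa1b, all 5 day 3 libraries lay above all 3 day 1 libraries, as they did for 5.31% of all genes. For no member did they all lie below, and the share of such genes over the whole table was not counted.

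**Figure D2:**
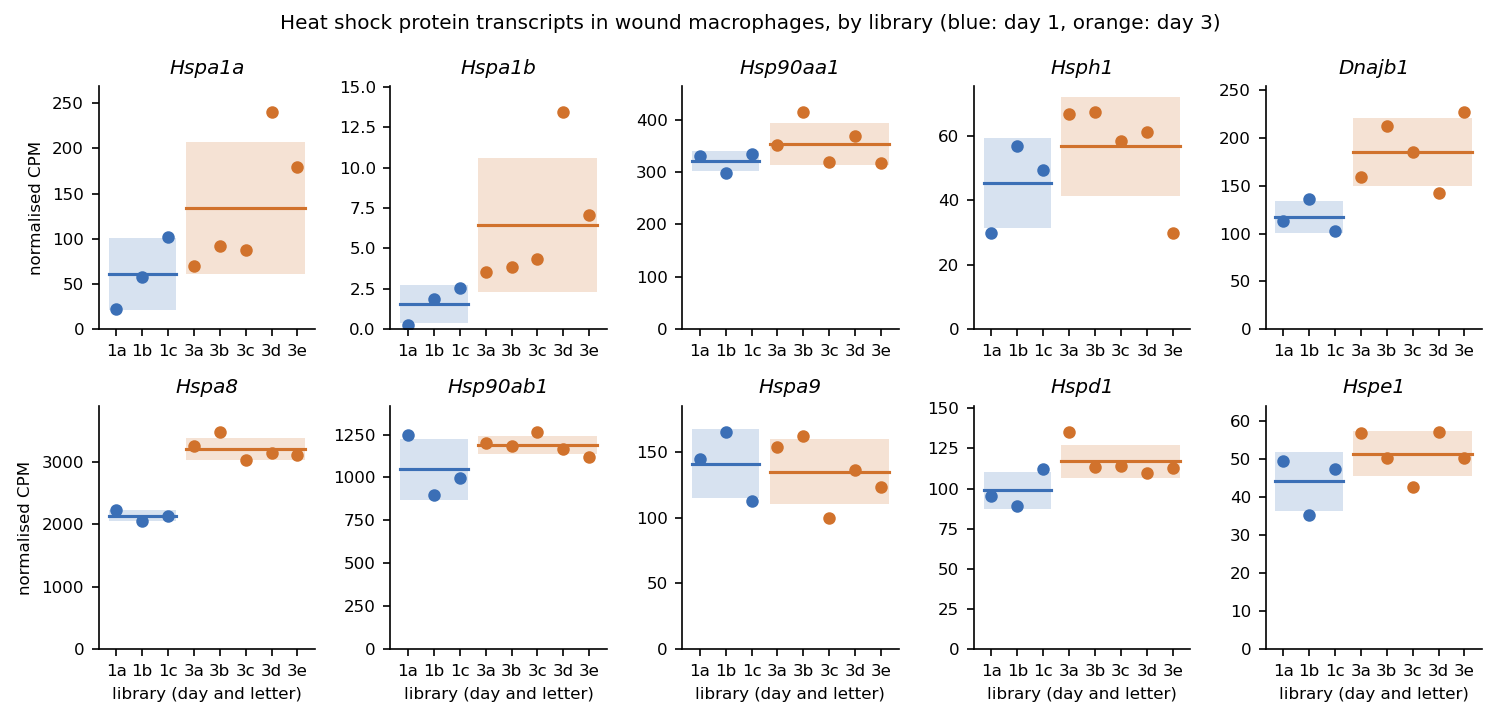
Normalised CPM (y axis, linear from 0, with its own scale in each panel) of the 10 genes in each library (x axis), day 1 in blue and day 3 in orange, with lines for the day means and shading for 1 SD on either side. Day ranges are separate for Hspa1b, Dnajb1 and Hspa8, Hspa1a and Hspa1b are highest in day 3 d, and Hsph1 in day 3 e lies far under the other day 3 libraries.

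The stress-inducible HSP70 genes showed the widest spread between libraries. Hspa1a (ENSMUSG00000091971, GRCm39 chromosome 17, 35188166 to 35191132, minus strand, a single exon) stood at 22.15, 58.3 and 102 CPM in the day 1 libraries a to c. At day 3 it stood at 69.9, 92.4, 88.0, 240 and 179.5 CPM in a to e. Libraries day 3 d and e were above every other library, while day 3 a, b and c lay under day 1 c, so the day ranges overlapped. The means were 60.8 ± 39.9 (SD, n = 3) and 134 ± 73.0 CPM (SD, n = 5), a coefficient of variation of 65.7% and 54.5%. Between the lowest and the highest library Hspa1a varied 10.85-fold. Its log2 fold change was 1.14 ± 0.54 (SE), with an adjusted p of 0.356 in edgeR and 0.162 in DESeq2, so the difference was not separated from the spread between pools. It was 0.70 without day 1 a and 1.72 without day 1 c.

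Hspa1b (ENSMUSG00000090877, chromosome 17, 35175412 to 35178214, minus strand, a single exon) encodes nearly the same HSP70 protein and lies 9951 bases from Hspa1a. Its counts were 11, 111 and 140 in the day 1 libraries and 187, 191, 221, 781 and 371 in the day 3 libraries, which gave 0.277, 1.85 and 2.55 CPM and 3.55, 3.88, 4.35, 13.4 and 7.07 CPM. The day ranges did not overlap, and day 3 d and e were again the highest. The mean was 1.56 ± 1.16 CPM at day 1 and 6.46 ± 4.14 CPM at day 3, a log2 fold change of 2.05 ± 0.92 with an adjusted p of 0.319 in edgeR and 0.102 in DESeq2. Without day 1 a, the library with 11 counts, the log2 fold change was 1.52.

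The counts of this gene pair are uncertain because their transcripts are alike. In the GENCODE M21 transcripts, 47.1% of the 100-base windows of Hspa1a occurred unchanged in Hspa1b and 49.9% of those of Hspa1b in Hspa1a, with an identical run of 638 bases. Reads from such stretches cannot be given to 1 of the genes. As a share of the TPM (counts per exon length, scaled to the same total in each library) of both genes, Hspa1b made up 1.31% to 3.25% at day 1 and 4.00% to 5.59% at day 3, with no overlap. Hspa1a also covers all 564 exon bases of Gm20481 on the other strand, which had 0 counts. No option for strand or shared bases is recorded. The 0 therefore cannot show whether Gm20481 was transcribed or whether reads on these bases were left out of both genes. Of the 50-base windows of Hspa1a, 0.0% occurred in Hspa8, and of those of Hsp90aa1, 0.0% in Hsp90ab1.

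Dnajb1, the J-domain partner that stimulates the ATPase of inducible HSP70, was higher in each day 3 library than in each day 1 library. Dnajb1 (ENSMUSG00000005483, chromosome 8, 84334822 to 84339282, plus strand, 4 exons) stood at 113, 136 and 103 CPM at day 1 and at 159, 213, 186, 142 and 227 CPM at day 3. The lowest day 3 library, d, lay just above the highest day 1 library, b, and day 3 d, the highest library for Hspa1a, was the lowest day 3 library for Dnajb1. The mean of 117 ± 16.9 CPM at day 1 compared with 186 ± 35.6 CPM at day 3, a log2 fold change of 0.66 ± 0.20 with an unadjusted p of 0.00846 in edgeR. The adjusted p was 0.134 in edgeR, 0.0414 in DESeq2 and 0.0993 in limma voom, so the call rests on the tool.

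Hsph1, the HSP110 protein that acts as nucleotide exchange factor of HSP70, overlapped between days. Hsph1 (ENSMUSG00000029657, chromosome 5, 149537752 to 149559841, minus strand, 19 exons) stood at 29.9, 56.7 and 49.4 CPM at day 1 and at 66.5, 67.3, 58.35, 61.1 and 29.9 CPM at day 3. Of the day 3 libraries, 4 were above every day 1 library and day 3 e was level with day 1 a, the lowest. The log2 fold change was 0.32 ± 0.31, with an adjusted p of 0.699 in edgeR, and it ranged from 0.07 without day 1 a to 0.52 without day 1 b.

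Hsp90aa1, the stress-inducible HSP90 isoform, was nearly level. Hsp90aa1 (ENSMUSG00000021270, chromosome 12, 110657039 to 110669162, minus strand, 11 exons) stood at 331, 298 and 334 CPM at day 1 and at 351, 415, 319, 368 and 318 CPM at day 3. The ranges overlapped, and the highest library exceeded the lowest 1.39-fold, the smallest such ratio among the 10 genes. The log2 fold change was 0.14 ± 0.15 with an adjusted p of 0.725 in edgeR, and its 95% interval ran from -0.15 to 0.43. Within the stress-inducible cytosolic genes, the median log2 fold change of the 5 was 0.66.

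**Figure D3:**
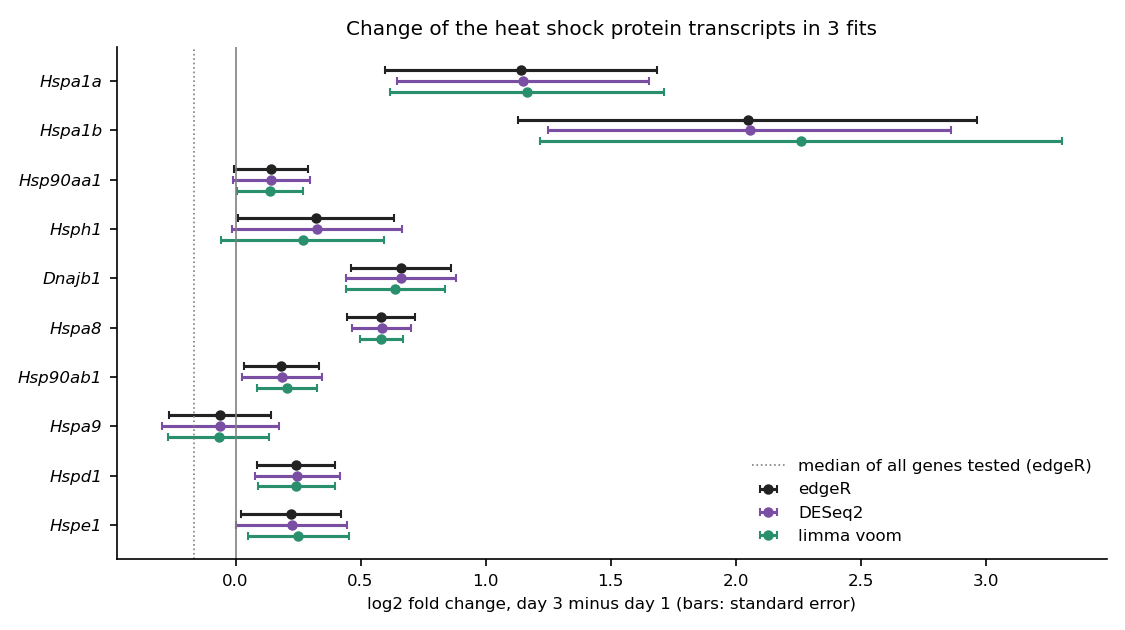
Log2 fold change of day 3 minus day 1 (x axis) of each gene in edgeR, DESeq2 and limma voom, with bars of 1 standard error and a dotted line at the edgeR median of all genes tested (-0.17). The estimates of the 3 fits lie close together for each gene, the bars are longest for Hspa1b and Hspa1a and short for Hspa8, and Hspa9 lies under 0 in each fit.

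Hspa8, the constitutive HSP70 that folds nascent chains, uncoats clathrin vesicles and carries clients to the lysosome in chaperone-mediated autophagy, was the most abundant of the genes and the one with the smallest standard error. Hspa8 (ENSMUSG00000015656, chromosome 9, 40712280 to 40721383, plus strand) stood at 2233, 2062 and 2134 CPM at day 1. At day 3 it stood at 3251, 3485, 3042, 3149 and 3116 CPM. The lowest day 3 library was far above the highest day 1 library, and the libraries within a day were tightly grouped. The means were 2143 ± 85.6 CPM and 3209 ± 172 CPM, a ratio of 1.5, with a coefficient of variation of 4.0% at day 1 and 5.4% at day 3. The log2 fold change was 0.58 ± 0.14 (95% interval by a normal approximation 0.32 to 0.85), with an unadjusted p of 0.00166 in edgeR. The adjusted p was 0.0829 in edgeR, 8.81e-05 in DESeq2 and 0.0112 in limma voom. Leaving out any 1 library kept the log2 fold change of Hspa8 between 0.55 and 0.61 and the edgeR adjusted p between 0.0830 and 0.152. The macrophage marker sum, given above, also had separate day ranges, and its part in the difference of Hspa8 was not tested. Hspa8 shares 86 to 90 exon bases with each of 3 small unnamed genes on its strand, all of which had 0 counts. All exon bases of these genes lie inside Hspa8, so the 0 counts cannot show whether reads there were left out.

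Hsp90ab1, the constitutive HSP90 that holds kinases and steroid receptors, did not separate the days. Hsp90ab1 (ENSMUSG00000023944, chromosome 17, 45878701 to 45884197, minus strand, 9 exons) stood at 1246.5, 897 and 996 CPM at day 1 and at 1203, 1184.5, 1265, 1167 and 1120 CPM at day 3. The day 1 libraries were more spread (coefficient of variation 17.2%) than the day 3 libraries (4.5%). Day 1 b and c lay under every day 3 library, and only day 3 c was above day 1 a. The log2 fold change was 0.18 ± 0.15 with an adjusted p of 0.638 in edgeR, and its 95% interval of -0.11 to 0.48 included 0.

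The mitochondrial chaperones lay close to each other and had a median log2 fold change of 0.22. Hspa9, the mitochondrial HSP70 and motor of protein import (ENSMUSG00000024359, chromosome 18, 35070467 to 35087410, minus strand, 14 exons), stood at 145, 165.5 and 113 CPM at day 1 and at 154, 162, 99.7, 137 and 124 CPM at day 3. The days overlapped, with day 3 c the lowest library and day 1 b the highest. The log2 fold change of Hspa9, -0.06 ± 0.20 (adjusted p 0.924 in edgeR), was the only one below 0 among the 10 genes. Its sign turned without day 1 b (0.08) or without day 3 c (0.03).

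Hspd1, the HSP60 subunit of the chaperonin barrel (ENSMUSG00000025980, chromosome 1, 55116994 to 55127402, minus strand, 12 exons), stood at 95.55, 89.3 and 112 CPM at day 1 and at 135, 113, 114, 110 and 113 CPM at day 3. Only day 3 a stood apart, and day 3 d was the library that lay under day 1 c. The log2 fold change was 0.24 ± 0.16 (adjusted p 0.517 in edgeR). Hspe1, the HSP10 lid of the barrel (ENSMUSG00000073676, chromosome 1, 55127291 to 55130466, plus strand, 4 exons), stood at 49.5, 35.25 and 47.4 CPM at day 1 and at 56.8, 50.1, 42.7, 57.0 and 50.1 CPM at day 3, with day 3 c inside the day 1 range. Its log2 fold change was 0.22 ± 0.20 (adjusted p 0.674 in edgeR). These divergent genes share 112 exon bases on opposite strands, and no strand option is recorded for the counting. Their ratio, Hspe1 TPM over Hspd1 TPM, was 0.671 to 0.933 over the 8 libraries with no separation by day. Named pseudogene copies of Hspa9, Hspd1 and Hspe1 held at most 112 counts in any library.

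Levels of different genes were compared only as TPM. Over the 8 libraries, the mean was 1594 TPM for Hspa8, 925 for Hsp90ab1, 213 for Hsp90aa1 and 122 for Dnajb1, and these 4 followed each other in the same order in 8 of 8 libraries with ranges that did not touch. Below them came Hspd1 at 102 TPM, Hspa1a at 89.0, Hspe1 at 80.7 and Hspa9 at 77.8, whose ranges overlapped with their neighbours and with that of Dnajb1, so their order is not fixed. Hsph1, at 17.6 TPM, lay under Hspa9 in every library. Hspa1b was last at 4.08 TPM, under Hsph1 in 8 of 8 libraries although the ranges of both touch.

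Within the families, the constitutive gene dominated on both days. Hspa8 made up 89.5% to 98.6% of the TPM of Hspa1a, Hspa1b and Hspa8 together, and the lowest share was in day 3 d, where Hspa1a and Hspa1b reached 10.48%. Hsp90ab1 made up 78.9% to 83.9% of the TPM of both HSP90 genes, with overlapping days. Of the summed TPM of all 10 genes, Hspa8 was 44.4% to 47.0% at day 1 and 49.97% to 52.8% at day 3, so its share was also higher in every day 3 library.

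The other genes of the chaperone system were taken from 8 lists with 84 genes, of which 78 were tested. Their median log2 fold change was 0.01, with 39 above 0 and 39 below. None was called by edgeR. Its p before adjustment was under 0.05 for 7 that were higher and 2 that were lower. Of all 15371 genes tested, 5.16% were higher at that p, and 2414 reached it in either direction. DESeq2 called 3 higher and 1 lower and limma voom 2 higher, beside 6.77% and 5.37% of all genes called in either direction. Over all 15371 genes, DESeq2 called 381 higher and 660 lower, and limma voom 148 higher and 677 lower. Day ranges did not overlap for 7 higher, beside 5.31% of all genes, and for 2 lower, whose share over all genes was not counted.

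Among regulators of the heat shock response, Hsf1 itself was low, with means of 15.0 ± 5.76 CPM at day 1 and 17.5 ± 9.98 CPM at day 3 (log2 fold change 0.23 ± 0.54, adjusted p 0.899 in edgeR). Hsbp1, which encodes a small protein that binds heat shock factor 1, was at 200 ± 36.0 CPM and 257 ± 15.3 CPM (0.37 ± 0.16, adjusted p 0.312 in edgeR), with separate day ranges. Of the 5 genes in this list, 3 were above 0 and 2 below. Among the other HSP70 and HSP110 proteins, 2 of 6 tested genes were above 0, and Hspa4, an HSP110 relative of Hsph1, stood at 138 ± 45.2 CPM and 98.0 ± 14.4 CPM (-0.49 ± 0.22, adjusted p 0.327 in edgeR), with overlapping ranges.

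The HSP70 partners that release nucleotide or direct clients to degradation were divided. Bag5, a BAG-domain exchange factor, stood at 18.2, 11.1 and 12.1 CPM at day 1 and at 40.8, 32.5, 32.7, 54.95 and 36.7 CPM at day 3, with every day 3 library above the highest day 1 library. Its log2 fold change was 1.52 ± 0.30, with an adjusted p of 0.0766 in edgeR, 0.000131 in DESeq2 and 0.0256 in limma voom. Bag1, another exchange factor, went the other way on average, with 63.7, 30.4 and 224 CPM at day 1 and 10.3 to 33.3 CPM at day 3. Its mean rested on day 1 c, the ranges overlapped, and the log2 fold change of -2.19 ± 0.60 had an adjusted p of 0.0984 in edgeR, 0.00722 in DESeq2 and 0.154 in limma voom. Over this list, 3 genes were above 0 and 6 below, with a median of -0.33. St13, the HSP70-interacting protein, stood at 225 ± 54.2 CPM and 186 ± 18.4 CPM (adjusted p 0.536 in edgeR).

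Of 14 tested J-domain genes, 7 were above 0 and 7 below. Dnajb14, a membrane-anchored J-domain protein of the endoplasmic reticulum, stood at 18.8, 42.0 and 22.5 CPM at day 1 and at 44.0 to 68.3 CPM at day 3 (log2 fold change 1.04 ± 0.30, adjusted p 0.117 in edgeR and 0.0244 in DESeq2). Dnajc2, a ribosome-associated J-domain protein, was at 30.1 ± 6.09 CPM and 53.05 ± 12.1 CPM (0.82 ± 0.26, adjusted p 0.152 in edgeR), and both genes had separate day ranges. They were the 2 of this list with separate ranges and higher at day 3. Separate ranges with a lower level were seen for 1 other gene, and the share of such genes over the whole table was not counted. Of 6 tested small heat shock proteins, 4 were above 0. Hspb1 (HSP27) had no count in 2 day 1 libraries and 0.401 CPM in day 1 c, against 1.601 to 3.33 CPM at day 3. It was called by DESeq2 (adjusted p 0.0498) and limma voom (0.0302) and not by edgeR (0.320). The fibroblast marker sum had separate day ranges too, and its part in the values of Hspb1 was not tested.

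The HSP90 co-chaperones were balanced, with 8 of 15 above 0 and a median of 0.02. Stip1, the adaptor that joins HSP70 to HSP90, stood at 122 ± 21.0 CPM at day 1 and 87.7 ± 18.8 CPM at day 3 (log2 fold change -0.47 ± 0.22, adjusted p 0.326 in edgeR), and Chordc1, an HSP90-binding protein, at 86.9 ± 10.9 and 116 ± 12.1 CPM (0.42 ± 0.16, adjusted p 0.246 in edgeR). The cytosolic chaperonin TRiC, which folds actin and tubulin, was level, with log2 fold changes of its 8 subunits between -0.33 and 0.18. Among 15 other mitochondrial chaperones and proteases, 9 were above 0 and the median was 0.21. Hscb, a J-domain protein of iron-sulfur cluster assembly (1.24 ± 0.43, adjusted p 0.182 in edgeR), and Dnajc19, a J-domain protein of the inner membrane (0.61 ± 0.23, adjusted p 0.221 in edgeR), had separate day ranges.

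**Figure D4:**
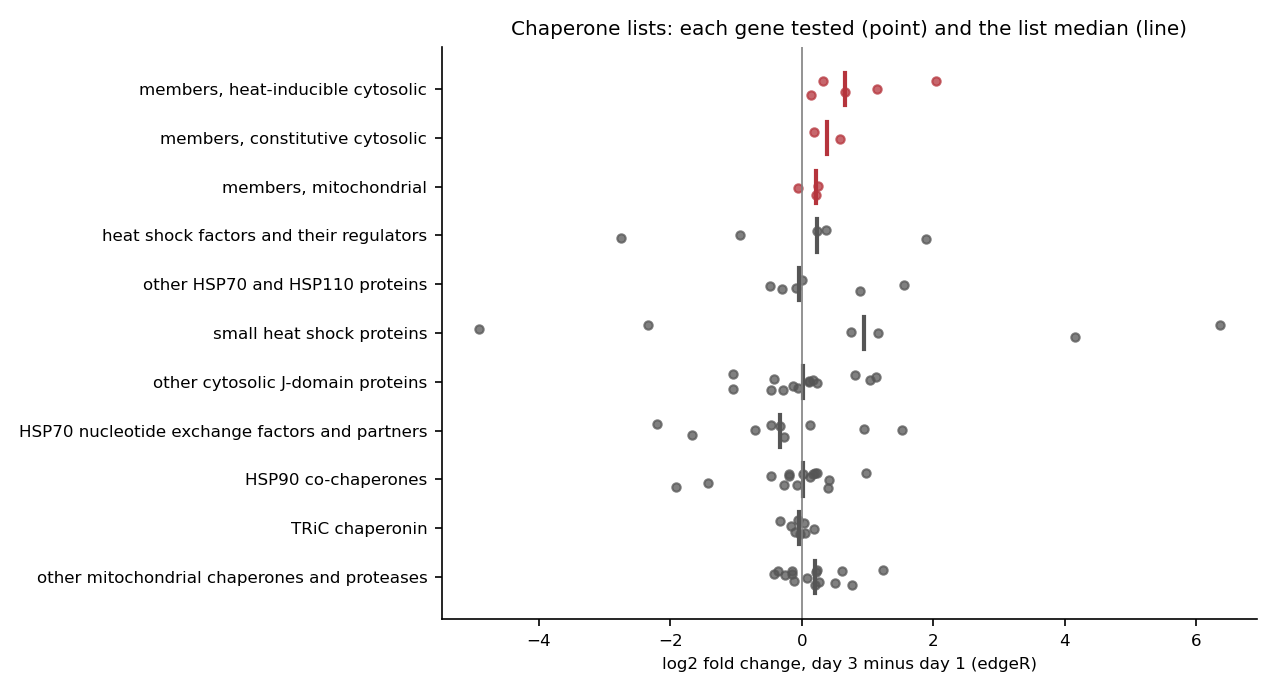
Log2 fold change of day 3 minus day 1 in edgeR (x axis) for each tested gene of the 3 groups of the 10 genes (red) and of the 8 other chaperone lists (grey), with a vertical bar at each list's median. The TRiC subunits lie within -0.33 to 0.18, whereas the small heat shock proteins spread from -4.91 to 6.36 at low counts.

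Immediate early genes, which respond within minutes to growth factors, stress and tissue digestion, were set beside Hspa1a because both are known to respond to cell isolation. The summed CPM of 15 such genes was 7537, 11246 and 19107 in day 1 a, b and c and 11557, 12341, 13471, 19419 and 17124 in day 3 a to e. Of the 15 genes, 5 had a log2 fold change above 0 and 10 below, with a median of -0.32. The days overlapped (exact two-sided permutation p = 0.500, 0.577 adjusted over 15 measures). Within day 1 the sum and Hspa1a had the same order of libraries, a below b below c, and within day 3 both were highest in d and next in e. Atf3, a stress-induced transcription factor of this list and one of the genes nearest in pattern to the stress-inducible group, stood at 461, 605 and 689 CPM at day 1 and at 701, 816, 893, 1172 and 1060 CPM at day 3 (log2 fold change 0.67 ± 0.21, adjusted p 0.157 in edgeR). Atf3 was named for that likeness, so its agreement with Hspa1a over the libraries follows from the choice. The part of the immediate early sum in the values of Hspa1a and Hspa1b was not tested. In day 1 c, 3528 CPM of the sum came from Junb, which stood at 104 to 296 CPM in the other 7 libraries. Dusp1, a MAP kinase phosphatase with the largest part of the sum over the libraries, stood at 3698 ± 1173 and 7413 ± 1571 CPM (1.00 ± 0.25, adjusted p 0.0836 in edgeR) with separate day ranges.

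**Figure D5:**
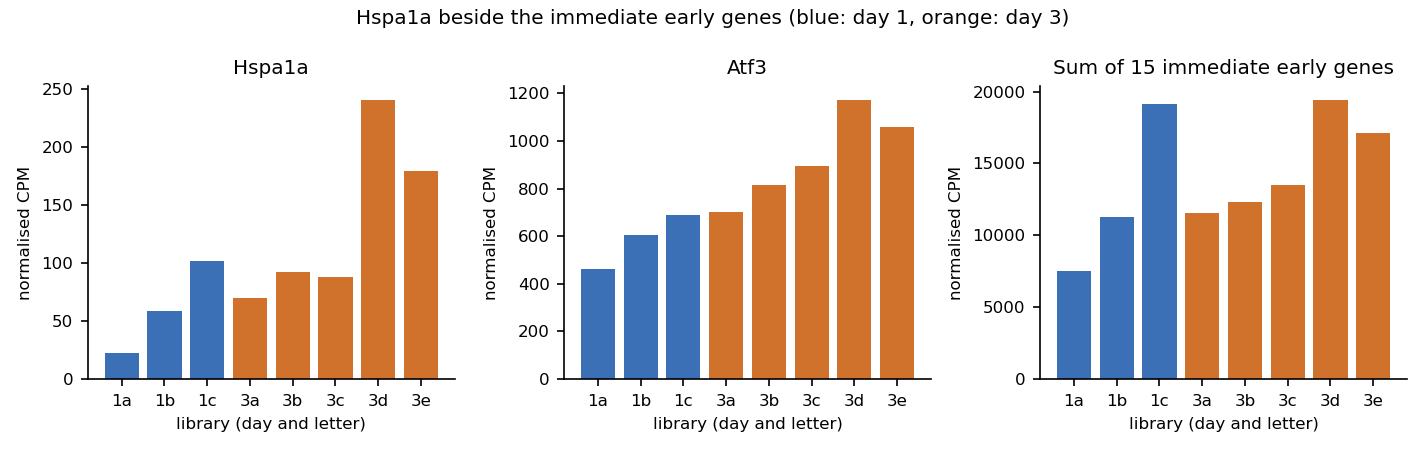
Normalised CPM (y axis, linear from 0) of Hspa1a, of Atf3 and of the sum of 15 immediate early genes in each library (x axis), day 1 in blue and day 3 in orange, with 1 bar per library. All 3 panels are highest in day 3 d. Atf3 was picked for its likeness to the group that holds Hspa1a, so its panel is no separate observation. The sum in day 1 c (19107) is nearly as high as in day 3 d (19419), while Hspa1a in day 1 c is 102 CPM.

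The genes with the pattern most like each group were found among 3870 genes of at least 5 average log2 CPM, by the root mean square difference of centred log2 CPM over the 8 libraries from the group's mean profile. For the stress-inducible group these were Rasgef1b (0.15), Lamtor4 (0.16), Polr3c (0.17), Atf3 (0.17) and Tmem37 (0.18), against a spread of 0.51 of the group's own profile. The constitutive group was nearest to Tmem50a (0.06), Ptma (0.08), Selenof (0.09), Ech1 (0.09) and Gng5 (0.10), with a spread of 0.21. For the mitochondrial group they were Tmbim4 (0.06), Atp5c1 (0.07), Rpl9 (0.08), Rpl11 (0.08) and Atp6v0b (0.09), with a spread of 0.13. These differences describe 8 shared libraries and their depths, and say nothing of common control.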

How the data were processed

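RNA of 8 libraries was measured, 3 from day 1 and 5 from day 3. The authors deposited raw counts per gene, 1 column per library. Per the file headers, featureCounts 1.6.0 counted reads on Ensembl release 106 of GRCm39, with no option recorded for strand, pairs or reads of several places. The submitters' processing notes also name Trimmomatic and DESeq2. For the aligner, nothing was given in these sources. Letters of 5 of the 8 columns differ from those of the alignments in the header, so letters served as names.

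Symbols were matched for 52081 of 55414 genes (94.0%). Genes were kept with filterByExpr (minimum count 10), scaled by TMM and tested with the two-sided quasi-likelihood F test of edgeR 4.0.16 (R 4.3.3), with Benjamini-Hochberg adjustment over 15371 genes and a threshold of 0.05. Log2 fold changes are day 3 minus day 1 ± SE, and levels are normalised CPM, mean ± SD (n = 3 and 5). TPM used the deposited exon lengths. DESeq2 1.42.0, limma voom 3.58.1, other scalings, filters and thresholds, halved counts and left-out libraries were alternatives, and the fits were tested on simulated data. Sums per library were compared by exact permutation (scipy 1.17.1). The likeness used a pseudocount of 0.5 CPM.

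All members are named, and of each list the 2 most abundant per length and the 2 with the smallest p could be named. The members and lists were chosen with earlier results of these data known.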

Additional observations from a re-analysis of the deposited data

Results flagged for a closer look

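Among the 5 day 3 libraries, Hsph1 in day 3 e was at 29.87 CPM, while the other 4 were between 58.35 and 67.26 CPM. The gap was 0.762 of the whole day 3 range, above Dixon's critical value of 0.71 for 5 samples. Hspd1 in day 3 a was at 135.3 CPM, while the other 4 were between 109.6 and 114 CPM, a gap of 0.827 of the range. Chance marks about 1 in 20 such groups, and the 10 genes gave 10 groups of day 3 libraries. Day 3 e was the highest library for Dnajb1 and the second highest for Hspa1a and Hspa1b. Day 3 a was also the day 3 library with the most genes detected (20557 against 14952 to 15359), and the part of that in the Hspd1 value was not tested.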

How the results depend on the processing

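Of 179 log2 fold changes of the 10 genes under the alternatives, 172 kept their direction and side of the threshold, 5 kept their direction and passed it, and 2 changed sign. The 2 were Hspa9 without day 1 b (0.075) and without day 3 c (0.033), in a left-out range of -0.200 to 0.075. The number of members called, 0 in edgeR, was 2 in DESeq2 (Hspa8, Dnajb1) and 1 in limma voom (Hspa8). With no filter on low counts it was 2 (Hspa1a, adjusted p 0.0074, and Hspa8, 0.0119). In that fit 1347 of 38518 genes were called, 210 of them higher. At an adjusted p under 0.1 it was 1 (Hspa8), where 735 of 15371 genes passed, 182 of them higher. The number of members called stayed at 0 with each library left out.

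The number of genes called over the whole table, 2 in edgeR, was 1041 in DESeq2, 825 in limma voom, 1347 with no filter, 146 with the stricter filter, 47 with halved counts, 25 without day 1 a and day 3 b together and 735 at an adjusted p under 0.1. With 1 library left out it ran from 0 to 59, with 59 without day 1 b, 31 without day 3 b, 1 without day 1 c and 0 without each other library, where 1976 to 2877 genes were at an unadjusted p under 0.05. The cause of these shifts was not tested. Hspa1b had no value under the stricter filter, which it did not pass.

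Deviations of libraries with the same column letter correlated at 0.07, 0.008 and 0.056 for a, b and c, against -0.107 to 0.055 for unlike letters. Several column letters differ from those of the alignments, so this check cannot decide whether libraries were paired. Over letters a to c, 0 genes were called with the replicate block and 0 without it, against 1343 and 1660 at an unadjusted p under 0.05, and no member was called in either fit.

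Depth limits Hspa1b among the members, with 11 counts in day 1 a.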
